A study of Mus musculus with 96 samples.

Results

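The fibroblast growth factor (FGF) pathway genes described here are 34 named mouse genes, of 22422 genes held in the counts. They comprise 10 secreted ligands, 4 intracellular FGF homologous factors, 5 receptors, 2 adaptors, 8 feedback inhibitors, 3 ETS transcription factors that act as pathway targets and 2 membrane proteins that bind FGF receptors. They were set by name from the known pathway, with no threshold on any measured value but with earlier results of these data known. The samples were E11.5 mouse neural tubes. Mutant embryos were heterozygous for the Xs-J allele of Eif3c (genotype C3HeB/Eif3cXs-J/+) and were compared with wild-type C3HeB embryos. Eif3c encodes a subunit of eIF3, a factor that helps the small ribosomal subunit find the start codon. Papain-dissociated cells from neural tubes of 1 litter were divided between poly(A) RNA-seq and ribosome profiling, in which the mRNA stretches covered by ribosomes (footprints) are sequenced. There were 3 pools per genotype and 12 libraries. A pool mixes all cell types of the dissected tube, and whether a genotype's pools were separate litters is not labelled, so the p-values speak only of how far these pools spread.

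FGF ligands bind receptor tyrosine kinases with heparan sulfate as a cofactor, and the receptors signal through the adaptor Frs2 to the RAS and ERK kinases. ERK activity raises the transcription of ETS factors and of Sprouty, Spred and Dusp genes, whose products damp the same cascade. In the neural tube the pathway keeps the caudal progenitors undifferentiated, patterns the tube from signalling centres such as the midbrain-hindbrain boundary and later takes part in the switch to glial fates.

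Sequences around start codons are shown because ribosome footprints were also found ahead of the annotated start of several of these genes, and because the member that passed a test did so in that region. An upstream AUG is a start triplet in the 5′ untranslated region (5′UTR) that can open a short upstream reading frame. Each line gives 9 bases before and 6 after an upstream AUG, or 12 bases before and 4 after the annotated start. They are written as DNA on the coding strand, from the GENCODE vM21 transcript that was counted (mm10), and capitals mark the start triplet.
Spred1 upstream AUG (plus strand, chr2:117121589-117121591): gcatccaccATGgtgagg
Spred1 annotated start (plus strand, chr2:117121725-117121727): ggtgagggaaagATGagcg
Spry2 upstream AUG (minus strand, chr14:105893791-105893793): ggagttcagATGtgttct
Spry2 annotated start (minus strand, chr14:105893748-105893750): tgccaagacctgATGgagg
Etv1 first upstream AUG (plus strand, chr12:38780238-38780240): gtggagccaATGggaggc
Etv1 annotated start (plus strand, chr12:38780935-38780937): aagaggagcagaATGgatg
Dusp6 upstream AUG (plus strand, chr10:99263634-99263636): gctcggcctATGcctgcc
Dusp6 annotated start (plus strand, chr10:99263692-99263694): agctcgacccccATGatag
Dusp4 upstream AUG (plus strand, chr8:34807539-34807541): gggactgctATGtaacgt
Dusp4 annotated start (plus strand, chr8:34807729-34807731): tttgccggcgacATGgtga
Fgf15 annotated start (plus strand, chr7:144896679-144896681): ccccgaggtgtcATGgcga

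The 351-base 5′UTR of Spred1 holds 1 upstream AUG, 136 bases before the annotated start. It has a purine at the third base before the AUG and a G directly after it, the pair of features of a strong start context in vertebrates, and it opens a frame of 42 codons whose stop ends 7 bases before the annotated start. The annotated start of Spred1 has the purine and lacks the G. The upstream AUG of Spry2, 43 bases before the start, has neither feature and opens a frame of 33 codons that runs into the coding sequence. That of Dusp6 lies 58 bases before the start, also has neither feature and opens a frame of 8 codons. In Dusp4 the upstream AUG is followed at once by a stop codon, so its frame is 1 codon long. Fgf15 has no upstream AUG in its 148-base 5′UTR. Etv1 has 3, at 271, 146 and 48 bases before the start. Among the 32 members whose start sequence was read, 16 annotated starts had both features, 15 had 1 of them and only that of Dusp6 had neither.

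Upstream AUGs were found in 25 of the 28 members tested with a sequence at hand (89.3%), against 6535 of 12824 genes tested (51.0%). The 5′UTRs of the members were also longer, with a median of 371.5 bases against 174.0 bases over those genes, and length and the number of AUGs move together. Flrt3 had the most, with 14, and Frs2 had 10, whereas Fgf15, Fgfr4 and Fgfrl1 had none. This count is a description of the annotation and was not tested.

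Coding counts per library were 11.3M to 14.8M for mutant footprints, 17.3M to 59.2M for wild-type footprints, 9.57M to 13.1M for mutant RNA and 7.20M to 13.1M for wild-type RNA. Eif3c itself had 296, 290 and 302 CPM (counts scaled to library size) in mutant RNA and 518, 497 and 474 CPM in wild-type RNA, a log2 difference of −0.75 ± 0.06 (SE; edgeR quasi-likelihood test, Benjamini-Hochberg adjusted p = 6.15e-04). In footprints the difference was −0.98 ± 0.07 (adjusted p = 0.00131), and in both assays every mutant library lay under every wild-type library. The 10 neural progenitor markers summed to 4387 to 5188 CPM in mutant RNA and 4789 to 5006 CPM in wild-type RNA and all 10 were detected, as the labelled tissue requires. Summed levels of 10 pan-neuronal markers were 5265 to 6071 CPM in mutant RNA and 6383 to 6662 CPM in wild-type RNA, and those of 7 roof plate markers were 96.7 to 152 CPM in mutant RNA and 63.9 to 82.4 CPM in wild-type RNA, without overlap in either list. Mutant pool 1 stood apart in blood and vessel markers, with 6492 CPM of 10 erythroid and 513 CPM of 7 endothelial markers in RNA, against at most 3435 and 365 CPM in each of the other 5 RNA libraries. In footprints it was also highest in notochord markers (485 against at most 344 CPM), neural crest and sensory ganglion markers (266 against at most 208 CPM) and surface epithelium markers (7.13 against at most 3.92 CPM). In RNA it was highest in these lists too, but its notochord markers were at 364 against at most 362 CPM. The 7 motor neuron markers summed to 219 to 253 CPM in mutant footprints and 208 to 212 CPM in wild-type footprints, without overlap, and overlapped in RNA. In bulk samples, fewer cells of a type and less RNA per cell cannot be told apart.

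Of the 10 secreted ligands, Fgf15 was by far the most abundant. Its level in wild-type pools was 36.5 ± 2.40 CPM per kilobase of coding sequence in RNA and 81.0 ± 5.22 in footprints (SD, n = 3). Fgf15 is the mouse counterpart of human FGF19 and is made by progenitors of the neural tube. Its RNA was 17.0, 23.7 and 20.4 CPM in mutant pools 1, 2 and 3 and 22.3, 22.9 and 20.2 CPM in wild-type pools. Its footprints were 35.0, 50.9 and 48.8 CPM in mutant pools and 52.0, 46.2 and 47.0 CPM in wild-type pools. The groups overlapped in both assays, with mutant pool 1 lowest in each, and the log2 differences were −0.11 ± 0.13 in RNA (adjusted p = 0.693) and −0.11 ± 0.13 in footprints (adjusted p = 0.642). An antisense gene, Gm26793, covers 331 of the 654 coding bases of Fgf15 and its whole 5′UTR. Whether reads were counted by strand is not stated by the labels, so reads of the pair cannot be told apart.

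Fgf18, Fgf9 and Fgf10 came next among the ligands, with wild-type RNA levels of 8.40 ± 0.90, 4.33 ± 0.99 and 2.49 ± 0.80 CPM per kilobase. The range of Fgf18 overlapped that of no other ligand in wild-type RNA, and those of Fgf9 and Fgf10 overlapped each other. Fgf3, Fgf2, Fgf17, Fgf1 and Fgf5 lay between 0.07 and 1.02 CPM per kilobase in wild-type RNA and overlapped each other in that order. Fgf8, the signal of the midbrain-hindbrain boundary and the tail bud, had 0.08, 0.10 and 0 CPM in mutant RNA and 0 CPM in all 3 wild-type RNA libraries. Its footprints were 0 CPM in all 3 mutant libraries and 0, 0 and 0.06 CPM in wild-type libraries. Those are 2 counts in all over the mutant libraries and 2 over the wild-type ones, under the limit of 3 counts per library, which is 0.226 to 0.417 CPM in RNA and 0.0509 to 0.268 CPM in footprints. Fgf1 was likewise at or under 3 counts in every library of both assays. Fgf5, expressed in early embryos, had 0.267, 0.410 and 0.267 CPM in mutant footprints and 0.0679, 0.116 and 0.0307 CPM in wild-type footprints. Its groups did not overlap, but the mutant values rest on 12 counts in all, and it was too low to be tested.

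**Figure D1:**
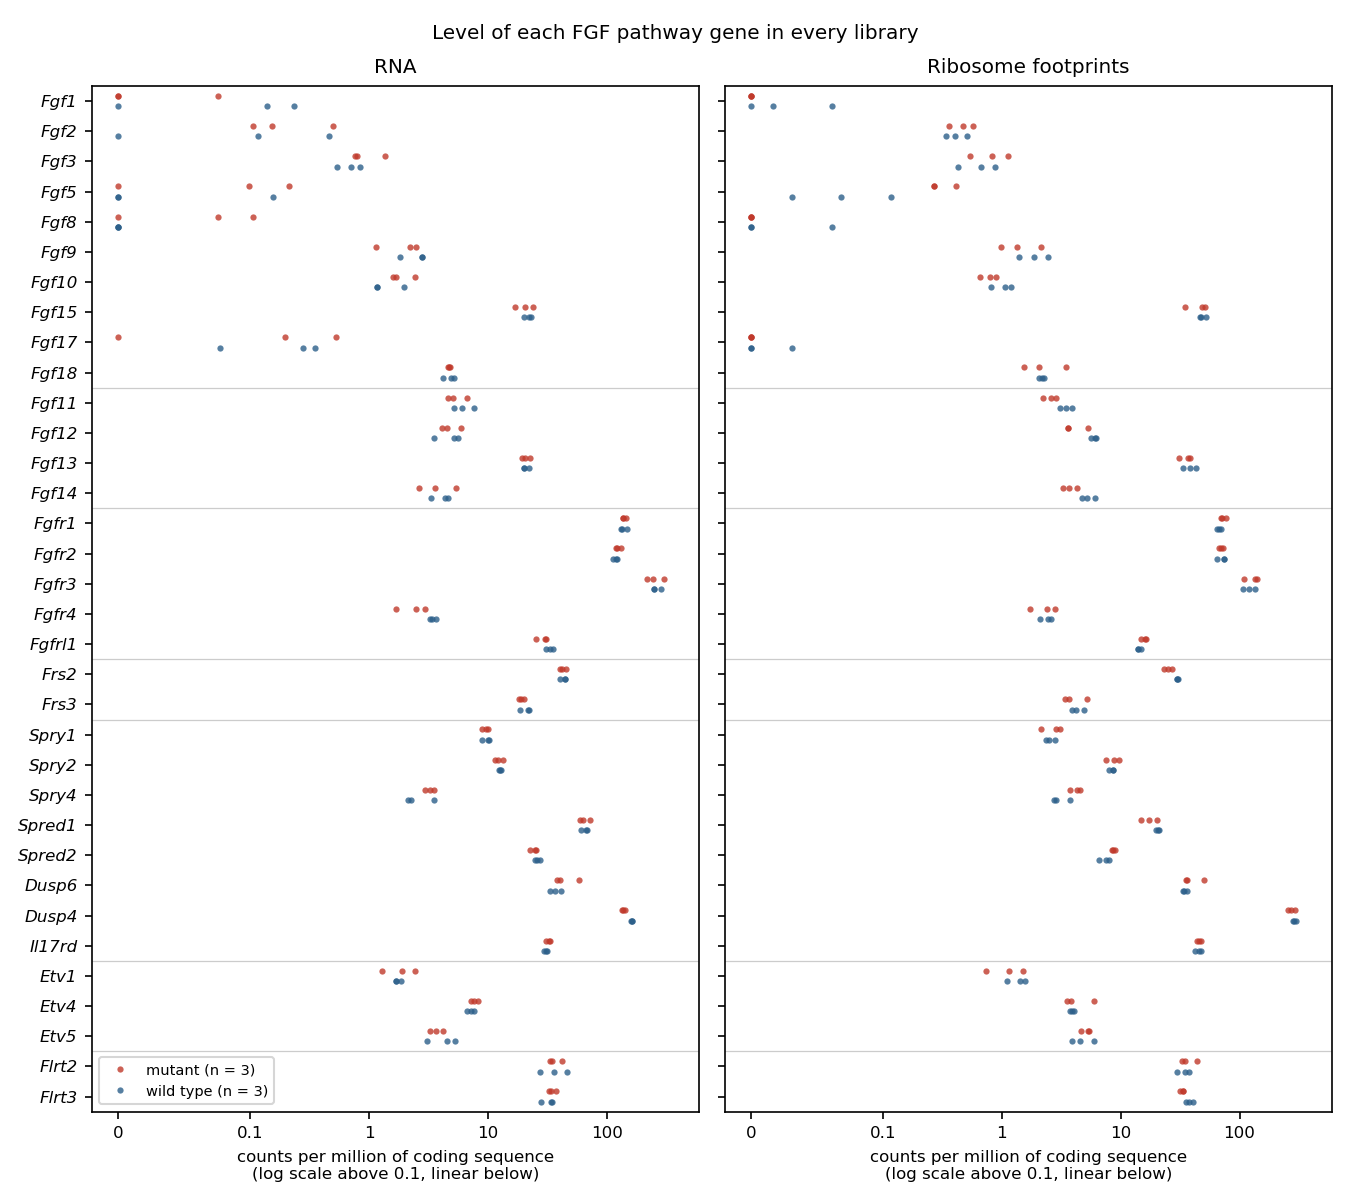
Level of each of the 34 FGF pathway genes in every library, in CPM of coding sequence, with RNA on the left and ribosome footprints on the right. Each point is 1 library, with mutant above wild type for each gene and lines between the functional groups; the points of mutant and wild type interleave for most genes, and Fgf1 and Fgf8 lie at or near 0 in both assays.

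Among the receptors, Fgfr3 and Fgfr1 had the highest RNA levels of the members after Dusp4. Fgfr3 was at 111 ± 8.50, Fgfr1 at 57.0 ± 3.56 and Fgfr2 at 47.7 ± 2.07 CPM per kilobase in wild-type RNA, and these 3 ranges did not overlap. Spred1 (51.1 ± 2.86) stood between Fgfr1 and Fgfr2 and overlapped Fgfr2. Fgfrl1, a receptor-like protein without a kinase domain, was at 21.6 ± 1.34, and Fgfr4 was low at 1.46 ± 0.08. The order of the receptors was kept in footprints for Fgfr3 (51.4 ± 6.11) and Fgfr4 (1.01 ± 0.11), while Fgfr2 (28.6 ± 2.12) and Fgfr1 (27.9 ± 1.17) overlapped. Counts were taken on 1 transcript per gene, and Fgfr1, Fgfr2 and Fgfr3 have 11, 19 and 13 coding transcripts, so their splice forms are not separated here.

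Of the 28 members tested in RNA and the 29 tested in footprints, none passed an adjusted p of 0.05. Over all genes 0.388% passed in RNA (52 of 13406) and 0.253% in footprints (34 of 13423), so a count of 0 is near the background. By edgeR's unadjusted p under 0.05 there was 1 member in RNA, Dusp4, and there were 6 in footprints, against 17.5% and 22.8% of all genes, and DESeq2 called 0 members in each assay. The median log2 difference over the members was −0.02 in RNA and −0.01 in footprints, against 0.01 in both assays over all genes tested. The 95% interval of the difference lay within a 1.5-fold change in either direction for 19 of the 28 members in RNA and for 19 of the 29 in footprints. For the other members the interval reached past 1.5-fold on at least 1 side, through its width or because the estimate lay away from 0, so a change of that size is not bounded there.

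**Figure D2:**
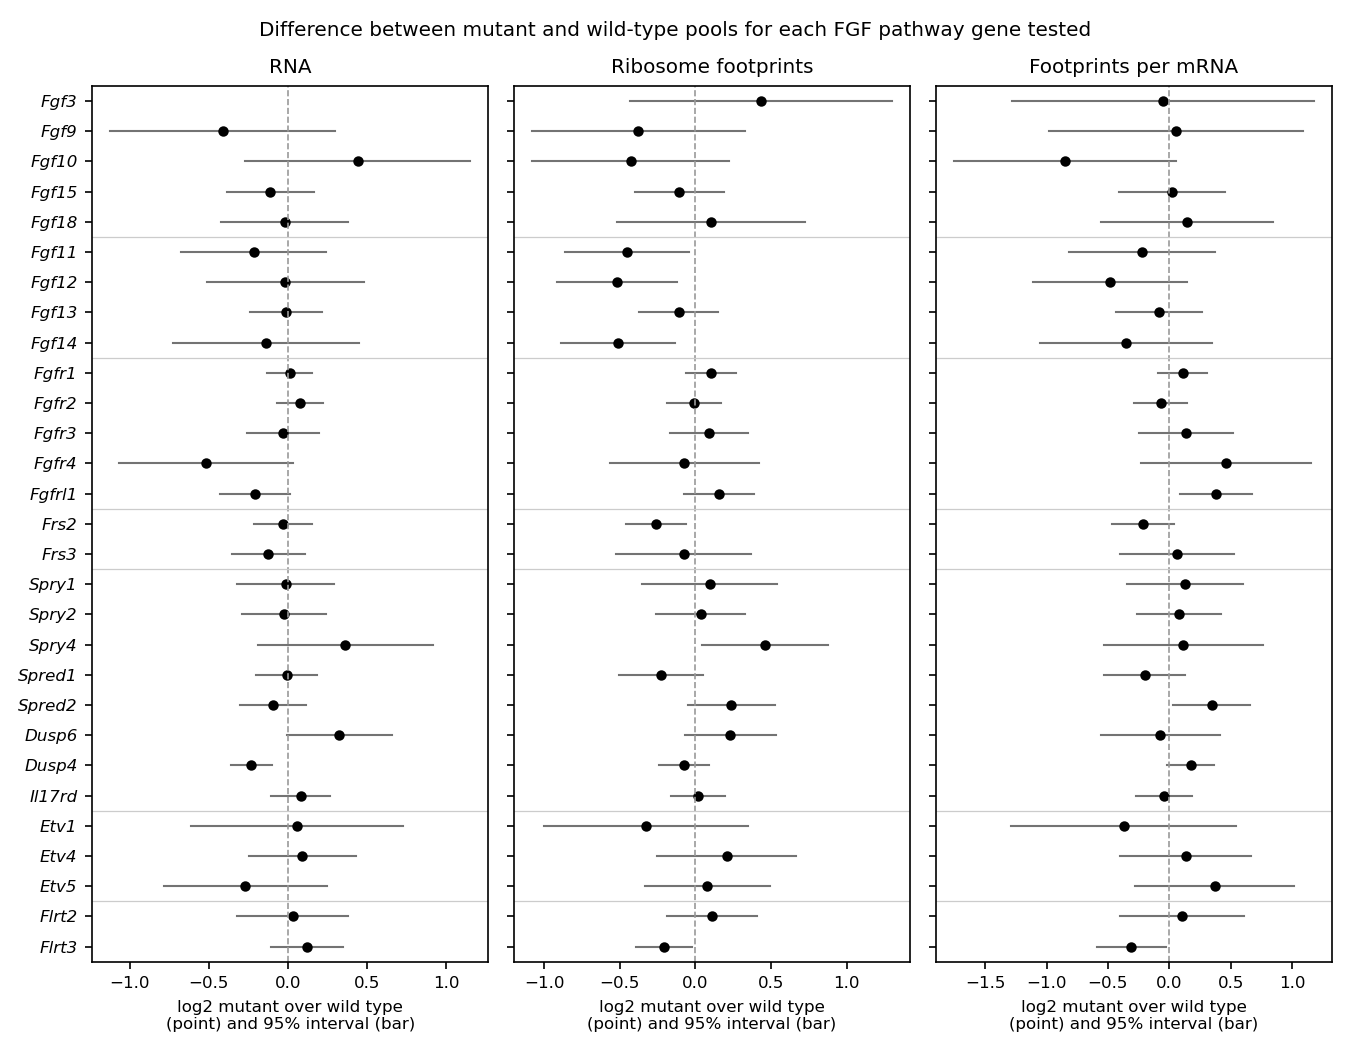
Log2 difference of mutant over wild type for each FGF pathway gene tested, in RNA, footprints and footprints per mRNA, as points with 95% intervals as bars and lines between the functional groups. Intervals are narrow for Dusp4, Fgfr1 and Fgfr2 and reach beyond 1 log2 unit for several weakly expressed members, among them ligands, Fgfr4 and Etv1. No member had an adjusted p under 0.05 in these 3 comparisons.

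The 3 most abundant receptors had values that interleaved between the genotypes. Fgfr1 had 137, 136 and 144 CPM in mutant RNA and 134, 147 and 131 CPM in wild-type RNA, a log2 difference of 0.01 ± 0.07 (95% interval −0.13 to 0.15). Fgfr2 had 119, 122 and 132 CPM in mutant RNA and 112, 122 and 119 CPM in wild-type RNA, a difference of 0.08 ± 0.07. Fgfr3 had 219, 245 and 303 CPM in mutant RNA and 250, 284 and 249 CPM in wild-type RNA, a difference of −0.03 ± 0.10. The groups overlapped for all 3, and the mutant pools of Fgfr3 spread more widely than the wild-type pools. In footprints Fgfr1 had 71.0, 76.5 and 69.6 CPM in mutant and 67.5, 70.0 and 64.4 CPM in wild-type pools, a difference of 0.10 ± 0.07. Fgfr2 had 67.7, 69.4 and 72.6 CPM in mutant and 73.5, 73.4 and 64.4 CPM in wild-type footprints, a difference of −0.01 ± 0.08. Fgfr3 had 109, 134 and 141 CPM in mutant and 121, 135 and 106 CPM in wild-type footprints, a difference of 0.09 ± 0.12. The groups overlapped again, and adjusted p-values of these receptors were 0.410 to 0.955 in footprints and 0.584 to 0.950 in RNA.

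Fgfrl1 and Fgfr4 were lower in every mutant than in every wild-type RNA library. Fgfrl1 RNA was 29.9, 25.4 and 30.8 CPM in mutant pools and 33.1, 35.1 and 31.0 CPM in wild-type pools, a log2 difference of −0.21 ± 0.10 (adjusted p = 0.311). Its footprints went the other way, with 16.1, 14.8 and 16.5 CPM in mutant pools and 14.1, 14.8 and 13.9 CPM in wild-type pools, a difference of 0.16 ± 0.10 (adjusted p = 0.389). The footprint groups were separate by a narrow margin, the closest pair being 14.82 CPM in mutant pool 2 and 14.75 CPM in wild-type pool 2. Fgfr4 RNA was 2.48, 2.93 and 1.68 CPM in mutant pools and 3.38, 3.23 and 3.62 CPM in wild-type pools, a difference of −0.52 ± 0.25 (adjusted p = 0.316), while its footprint groups overlapped. Neither gene passed the test. Non-overlapping groups were counted for 3 of 28 members in RNA, all lower in the mutant, against 11.0% of all genes lower and 11.2% higher. In footprints they were counted for 7 of 29 members, 2 higher and 5 lower, against 14.4% and 14.8% of all genes.

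The 4 FGF homologous factors are not secreted and bind voltage-gated sodium channels in neurons. Fgf13 was the most abundant, at 30.5 ± 1.64 CPM per kilobase in wild-type RNA and 56.3 ± 7.11 in wild-type footprints. Fgf11, Fgf12 and Fgf14 lay between 5.85 and 10.2 CPM per kilobase in wild-type RNA, each overlapping the next in order. Footprints of these 3 were lower in every mutant than in every wild-type library. Fgf14 had 3.30, 4.26 and 3.67 CPM in mutant footprints and 5.18, 4.70 and 6.04 CPM in wild-type footprints, a log2 difference of −0.51 ± 0.17 (adjusted p = 0.134). An antisense gene, Gm28932, covers 87 of the 756 coding bases of Fgf14, and strand use is not stated. Fgf12 had 3.57, 5.32 and 3.60 CPM in mutant footprints and 6.16, 5.58 and 6.04 CPM in wild-type footprints, a difference of −0.52 ± 0.18 (adjusted p = 0.143). Fgf11 had 2.23, 2.87 and 2.60 CPM in mutant footprints and 3.87, 3.08 and 3.50 CPM in wild-type footprints, a difference of −0.46 ± 0.18 (adjusted p = 0.182). None passed the threshold, and leaving out mutant pool 2 brought Fgf12 to −0.74 (adjusted p = 0.0149) and Fgf14 to −0.62 (adjusted p = 0.0447), while leaving out any other pool left both above it. Their RNA groups overlapped, with adjusted p of 0.839 for Fgf14, 0.979 for Fgf12 and 0.636 for Fgf11. The summed pan-neuronal markers were also lower in every mutant footprint library, at 9429 to 10216 CPM against 10578 to 11579 CPM in wild type. In RNA these markers were lower in every mutant library as well, whereas the RNA groups of Fgf11, Fgf12 and Fgf14 overlapped. The part of neuronal content in the values of these genes was not tested. Fgf13 footprints overlapped between groups, with 31.0, 36.9 and 38.1 CPM in mutant and 38.4, 33.2 and 42.8 CPM in wild-type pools.

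Frs2 is the main adaptor that links FGF receptors to RAS, and Frs3 is its close relative. Frs2 footprints were 23.1, 24.9 and 26.8 CPM in mutant pools and 30.6, 29.5 and 29.6 CPM in wild-type pools, so that every mutant value lay under every wild-type value. The log2 difference was −0.26 ± 0.09 (adjusted p = 0.142), and it was 0.075 when the 4 incomplete lanes of mutant pool 1 were kept in the sums. The RNA groups of Frs2 overlapped at 40.3 to 45.1 CPM in mutant and 40.3 to 44.7 CPM in wild type. Frs3 overlapped between groups in both assays. Among the membrane proteins, Flrt3, which can bind FGF receptors and netrin receptors, had 31.5, 33.2 and 33.6 CPM in mutant footprints and 37.7, 40.5 and 35.7 CPM in wild-type footprints, a difference of −0.21 ± 0.08 (adjusted p = 0.175). Its groups did not overlap in footprints and overlapped in RNA, at 32.7 to 37.5 CPM in mutant and 28.0 to 34.8 CPM in wild type. Flrt2 overlapped in both assays.

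Dusp4, a nuclear phosphatase that inactivates ERK and related kinases, had the highest level of all 34 members in both assays, at 142 ± 1.68 CPM per kilobase in wild-type RNA and 254 ± 7.61 in wild-type footprints. Those levels stood at percentile 93.4 of all genes tested in RNA and percentile 95.6 in footprints. Its RNA was 137, 143 and 133 CPM in mutant pools and 163, 160 and 162 CPM in wild-type pools, a log2 difference of −0.23 ± 0.06 (adjusted p = 0.0807). Every mutant pool lay under every wild-type pool, but the difference missed the threshold, and among the pools left out in turn it passed only without mutant pool 2 (adjusted p = 0.0134). Dusp4 footprints overlapped between groups, at 295, 269 and 257 CPM in mutant and 285, 282 and 298 CPM in wild-type pools.

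Dusp6, a cytoplasmic phosphatase of ERK and a common readout of FGF signalling, had 58.7, 40.4 and 38.1 CPM in mutant RNA and 36.6, 32.9 and 41.4 CPM in wild-type RNA. Its footprints were 50.7, 35.3 and 35.8 CPM in mutant pools and 33.95, 36.4 and 33.5 CPM in wild-type pools. In both assays mutant pool 1 stood above all other libraries and the other mutant pools lay close to wild type. The log2 difference was 0.32 ± 0.15 in RNA (adjusted p = 0.294) and 0.23 ± 0.13 in footprints (adjusted p = 0.328), and without mutant pool 1 it was 0.10 and 0.04. In footprints it was 0.70 when the incomplete lanes of mutant pool 1 were kept in the sums. The same pool had the most erythroid and endothelial marker counts, as given above, and 1970 CPM of 10 mesenchyme and somite markers in footprints, against 1084 to 1357 CPM in the other 5 footprint libraries. In RNA the mesenchyme and somite markers were at 970 CPM in mutant pool 1, close to 962 CPM in wild-type pool 3. The part of these cells in the Dusp6 value was not tested.

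Sprouty and Spred proteins restrain the cascade between receptor and ERK. Spry4 had 3.54, 3.25 and 2.96 CPM in mutant RNA and 2.10, 2.23 and 3.48 CPM in wild-type RNA, a log2 difference of 0.36 ± 0.25 (adjusted p = 0.492). Its footprints were 4.55, 3.77 and 4.27 CPM in mutant pools and 2.73, 3.78 and 2.85 CPM in wild-type pools, a difference of 0.46 ± 0.18 (adjusted p = 0.182). The wild-type pool that reached into the mutant range was pool 3 in RNA and pool 2 in footprints. Spry1 and Spry2 overlapped in both assays. Spred1 had 58.8, 72.4 and 63.2 CPM in mutant RNA and 67.8, 61.0 and 66.7 CPM in wild-type RNA, a difference of −0.01 ± 0.09 (adjusted p = 0.976). Spred1 footprints were 14.8, 17.2 and 20.2 CPM in mutant pools and 21.1, 19.7 and 20.5 CPM in wild-type pools, a difference of −0.23 ± 0.12 (adjusted p = 0.299). Mutant pools 1 and 2 lay under all wild-type pools in Spred1 footprints and mutant pool 3 lay among them. Spred2 footprints were 8.65, 8.52 and 8.94 CPM in mutant pools and 8.03, 6.51 and 7.45 CPM in wild-type pools, without overlap (adjusted p = 0.295). Il17rd, a membrane inhibitor of FGF receptors also known as Sef, overlapped in both assays.

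The ETS factors Etv1, Etv4 and Etv5, which ERK signalling induces, were among the weaker members. In wild-type RNA Etv4 was at 5.09 ± 0.33, Etv5 at 2.92 ± 0.77 and Etv1 at 1.27 ± 0.08 CPM per kilobase. Etv4 had 7.22, 7.54 and 8.18 CPM in mutant RNA and 7.12, 7.61 and 6.67 CPM in wild-type RNA, a log2 difference of 0.09 ± 0.15 (adjusted p = 0.813). Its footprints were 3.83, 3.52 and 5.94 CPM in mutant pools and 3.77, 4.07 and 3.89 CPM in wild-type pools, a difference of 0.21 ± 0.20 (adjusted p = 0.560). Mutant pool 3 was highest in both assays, and the groups of all 3 ETS factors overlapped in both.

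Footprints per mRNA, the ratio of footprint CPM to RNA CPM in the same pool and the usual measure of translational efficiency, spread widely among the members in wild type. Fgf15 had the highest value, at a log2 ratio of 1.23 ± 0.11 (SD, n = 3) and percentile 98.4 of all genes tested. Fgf13 (0.96 ± 0.25), Dusp4 (0.93 ± 0.04) and Il17rd (0.65 ± 0.08) followed, and these 4 lay in the upper quartile of all genes. At the other end stood Frs3 at −2.05 ± 0.09, percentile 3.12, then Spred2 at −1.66 ± 0.20, Spry1 at −1.66 ± 0.21 and Spred1 at −1.56 ± 0.04. The antisense gene Frs3os covers 162 of the 1476 coding bases of Frs3, and Gm26793 covers part of those of Fgf15, as given above. Strand use is not stated, so antisense reads cannot be told apart in the values of Frs3 and Fgf15. The lower quartile of all genes held 11 of the 29 members, and 19 lay below the median of 0.01. Receptors were all on the low side, with Fgfr1 at −0.93 ± 0.03, Fgfr3 at −1.02 ± 0.09 and Fgfrl1 at −1.09 ± 0.05. The 2 Dusp genes therefore differed, with Dusp4 far above and Dusp6 (0.01 ± 0.22) at the median. Over all genes, the median was −0.23 with and 0.24 without an upstream AUG. Among the members it was −0.25 in the 25 with and −0.36 in the 3 without one. Dusp4, Fgf13 and Il17rd, among the highest members, each carry 1 upstream AUG, and the relation was not tested.

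**Figure D3:**
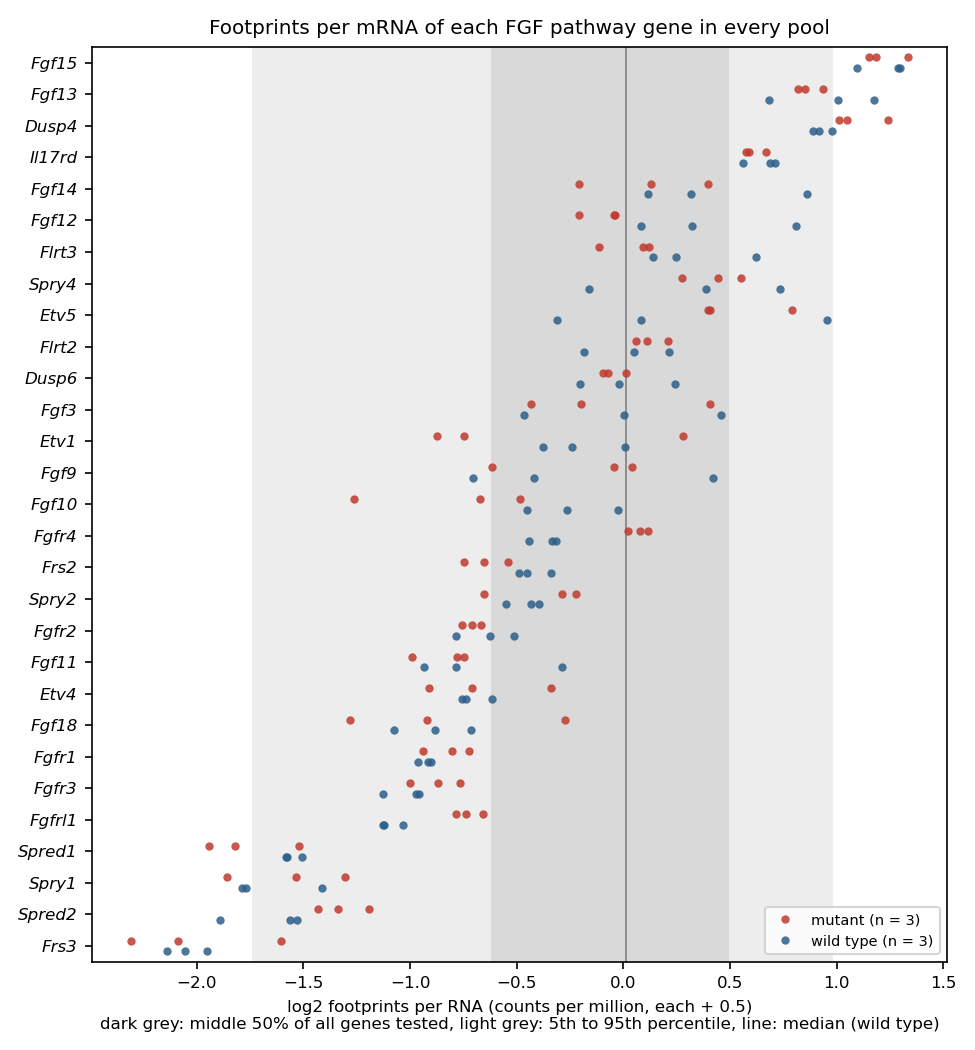
Log2 footprints per RNA of the 29 FGF pathway genes tested, ordered by their wild-type mean, with 1 point per pool and mutant above wild type. Grey bands and the line give the spread and median of all genes tested in wild type; Fgf15, Fgf13 and Dusp4 lie near the top and Frs3, Spred2, Spry1 and Spred1 near the bottom in both genotypes.

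No member passed the test of footprints per mRNA, the interaction of genotype and assay over the 12 libraries, and 0% of all 13877 genes did (0 genes). By edgeR's unadjusted p under 0.05 there were 3 members and 1366 genes (9.84% of all genes), and DESeq2 called 20 genes and 0 members. The member of smallest p was Fgfrl1, with log2 ratios of −0.74, −0.66 and −0.78 in mutant pools and −1.12, −1.13 and −1.04 in wild-type pools, without overlap. Its difference was 0.38 ± 0.14 (adjusted p = 0.432). Flrt3 differed by −0.31 ± 0.13 (adjusted p = 0.470), with −0.11, 0.12 and 0.09 in mutant pools against 0.25, 0.62 and 0.14 in wild-type pools. Spred2 differed by 0.34 ± 0.15 (adjusted p = 0.475), with −1.34, −1.43 and −1.19 in mutant pools against −1.53, −1.89 and −1.56 in wild-type pools. The mutant and wild-type values were separate for all 3 genes, and none passed the adjusted threshold. Fgf10 had −0.48, −1.26 and −0.67 in mutant pools and −0.03, −0.27 and −0.45 in wild-type pools, a difference of −0.85 ± 0.42 (adjusted p = 0.535) that rests on 30 mutant footprint counts in all. Dusp4 had 1.24, 1.01 and 1.05 in mutant pools and 0.89, 0.92 and 0.98 in wild-type pools, a difference of 0.17 ± 0.09 (adjusted p = 0.551). Non-overlapping groups were counted for 8 of 29 members, 4 higher and 4 lower, against 11.6% and 11.2% of all genes. With the cell pool as a block, 113 genes passed (0.814%), none of them a member.

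Footprints in the 5′UTR gave the only comparison in which a member passed the test. Spred1 had 60.2, 56.2 and 32.0 footprints in its 5′UTR per 100 in its coding sequence in mutant pools 1, 2 and 3, and 22.7, 28.9 and 26.4 in wild-type pools. The mutant values came from 100, 118 and 97 footprints and the wild-type values from 282, 98 and 176. Every mutant pool was above every wild-type pool, pool 3 only narrowly. The log2 difference was 0.89 ± 0.23 (95% interval 0.41 to 1.37, adjusted p = 0.0278), so the ratio rose. In RNA the same ratio was 19.7 ± 3.21 reads per 100 in mutant and 18.3 ± 2.44 in wild type (SD, n = 3), with overlapping groups. To which region a footprint straddling the start codon was counted is not stated by the labels. The strong upstream AUG shown above lies in this 5′UTR, and the counts do not say where in the 5′UTR the footprints fell.

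That ratio was higher in the mutant over many genes. Of 10888 genes tested, 9.17% passed, 966 higher (8.87%) and 32 lower (0.294%), and 1 of the 23 members tested passed, higher. Summed over all genes there were 20.0, 16.5 and 19.4 5′UTR footprints per 100 coding footprints in mutant pools 1, 2 and 3, and 16.2, 16.2 and 16.1 in wild-type pools. The median log2 difference was 0.18 over the members and 0.22 over all genes. The call of Spred1 was lost without mutant pool 1 (0.73, adjusted p = 0.102), without wild-type pool 1 (0.79, adjusted p = 0.180) and without wild-type pool 3 (0.91, adjusted p = 0.101). It was also lost with counts summed over transcripts (0.81, adjusted p = 0.0850).

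Spred2 came next, with 50.5, 47.1 and 50.8 5′UTR footprints per 100 coding footprints in mutant pools and 27.9, 46.4 and 30.5 in wild-type pools, a log2 difference of 0.61 ± 0.23 (adjusted p = 0.106). Fgf13 had 20.7, 13.3 and 16.8 in mutant pools and 13.0, 12.4 and 10.2 in wild-type pools, a difference of 0.50 ± 0.20 (adjusted p = 0.122). Flrt3 had 27.8, 27.2 and 22.9 in mutant pools and 17.0, 18.9 and 22.0 in wild-type pools, a difference of 0.43 ± 0.17 (adjusted p = 0.128). The groups of these genes were separate, though a wild-type or mutant pool came close to the other group in each. Dusp4 had 33.7, 31.1 and 36.8 in mutant pools and 26.5, 29.8 and 26.0 in wild-type pools, a difference of 0.30 ± 0.14 (adjusted p = 0.178). Spry2 was the only member tested with lower values in every mutant than in every wild-type pool, at 126, 113 and 134 in mutant pools and 156, 153 and 171 in wild-type pools, a difference of −0.36 ± 0.17 (adjusted p = 0.183). Non-overlapping groups were counted for 7 of the 23 members, 6 higher and 1 lower, against 27.0% and 3.39% of all genes.

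**Figure D4:**
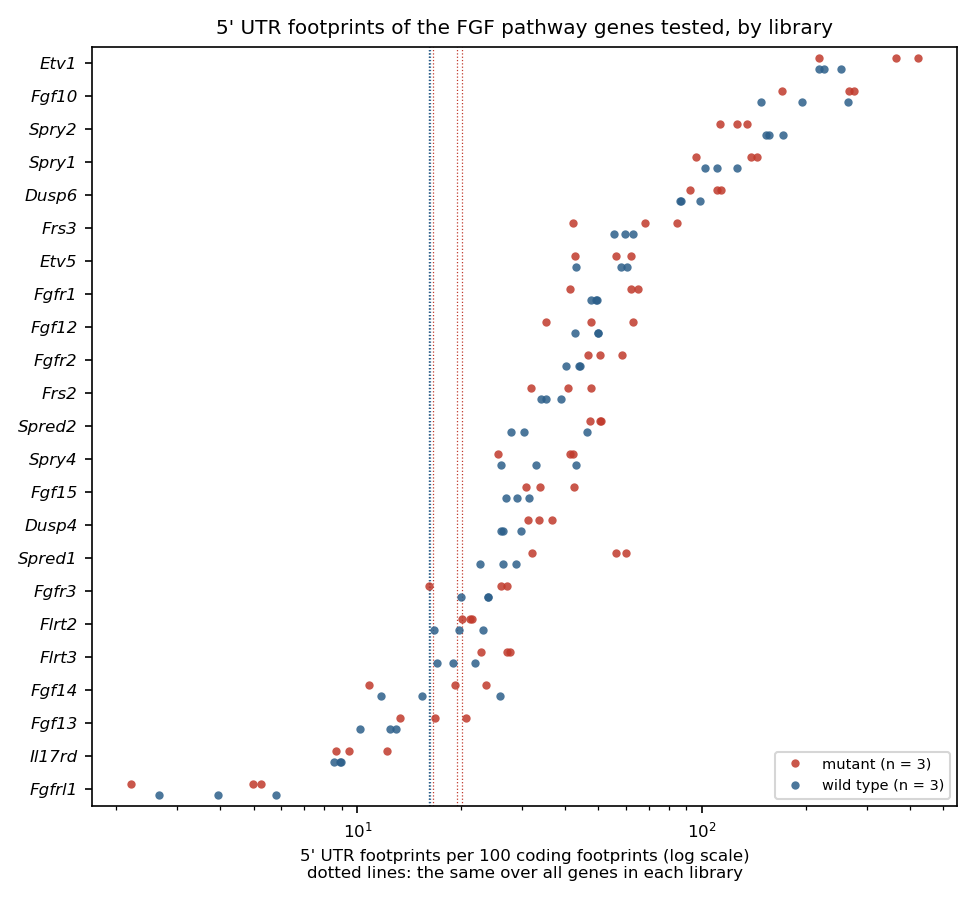
Footprints in the 5′UTR per 100 footprints in the coding sequence for the 23 FGF pathway genes tested, on a log scale, with 1 point per library, mutant above wild type, and genes ordered by their wild-type mean. Dotted lines give the same ratio over all genes in each library; Etv1, Fgf10 and Spry2 lie above 100 in all 6 libraries, and the mutant points of Spred1 (32.0 to 60.2) lie above its wild-type points (22.7 to 28.9).

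Several members carried dense 5′UTR footprints in both genotypes. Per base, Etv1 had 10.8 ± 3.38 times as many footprints in its 5′UTR as in its coding sequence in mutant pools and 7.47 ± 0.59 times as many in wild-type pools. Its mutant ratio rests on 17, 14 and 11 coding footprints, and Etv1 has 9 coding transcripts, of which 1 was counted. For Spry2 the density ratio was 3.90 ± 0.34 in mutant and 5.01 ± 0.31 in wild-type pools, for Frs3 it was 3.82 ± 1.25 in mutant and 3.50 ± 0.22 in wild-type pools, and for Dusp6 it was 2.48 ± 0.27 in mutant and 2.13 ± 0.16 in wild-type pools. RNA reads showed no such excess, with wild-type ratios of 1.28 ± 0.41 for Etv1, 0.885 ± 0.11 for Spry2, 0.712 ± 0.12 for Frs3 and 0.778 ± 0.04 for Dusp6. The RNA ratio of Etv1 rests on 5, 12 and 4 5′UTR reads. Among the 23 members, 16 had a higher 5′UTR density ratio in wild-type footprints than in wild-type RNA, and 12 lay above the median footprint ratio of all genes tested, 1.23. Over all genes tested the median wild-type RNA ratio was 0.661, also below the footprint median. The share of all genes with the higher ratio in footprints was not counted. Etv1, Fgf10 and Spry2 had more footprints in the 5′UTR than in the counted coding sequence in every library. Coding counts leave out the first 15 and last 5 codons, and the share of all genes with such an excess was not counted. Of the 23 members tested, Fgf13 (0.216 ± 0.03), Fgf12 (0.294 ± 0.03) and Fgf14 (0.301 ± 0.13) had the lowest wild-type ratios. An antisense exon covers the whole 5′UTR of Fgfr3 (G630022F23Rik), 57.9% of that of Spry1 (Gm42922) and 8.2% of that of Fgf10 (Gm16263). Their 5′UTR reads therefore cannot be told apart from antisense reads. Dusp4 (0.722 ± 0.05) also lay below 1, with its upstream frame of 1 codon shown above.

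The wider pathway was looked at through 74 further genes, of which 73 were held: other ligands, heparan sulfate proteins, coreceptors, the RAS and ERK cascade and further feedback genes. None of 62 passed in RNA and none of 63 in footprints or in footprints per mRNA. The smallest p in RNA was that of Dusp9, an ERK phosphatase, at 8.71 ± 1.97 CPM in mutant and 5.23 ± 0.93 CPM in wild type (SD, n = 3 each), a log2 difference of 0.73 ± 0.21 (adjusted p = 0.107). Sdc3, Dusp5 and Gpc2 followed with adjusted p of 0.108, 0.124 and 0.124. In footprints Kl, the coreceptor Klotho, had 1.48 ± 0.27 CPM in mutant and 0.405 ± 0.12 CPM in wild type (adjusted p = 0.0537), followed by Dusp9, Gpc3 and Dusp5, all higher in the mutant (adjusted p = 0.0767 to 0.0792). In footprints per mRNA, Elk1, Gpc1, Dusp7 and Ndst1 had the smallest p (adjusted p = 0.432 to 0.446). In the 5′UTR ratio 7 of 59 rose and none fell, against 8.87% higher and 0.294% lower over all genes, which is near the background. Among the 7 were the RAS activators Sos1 and Sos2, the kinase Rps6ka2, the adaptor Gab2 and the heparan sulfate proteins Sdc3 and Sdc4. Sos2 had 7.88 ± 1.23 5′UTR footprints per 100 coding footprints in mutant and 3.62 ± 0.36 in wild type, a log2 difference of 1.12 ± 0.21 (adjusted p = 0.00910). The median over the 59 genes was 0.28, beside 0.22 over all genes.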

How the data were processed

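The data were ribosome profiling and RNA-seq libraries of E11.5 mouse neural tube, 3 pools per genotype and assay. The members and lists were chosen with earlier results of these data known. The authors deposited, for each lane, read counts for whole transcripts and for their parts, with cutadapt, STAR, mm10 and bedtools named in the submitters' processing notes; versions, strand and how reads matching several genes were treated are not stated there. Coding counts leave out the first 15 and last 5 codons. Transcript identifiers were paired with GENCODE vM21 (121271 of 122941 with version, 1522 without), and 0.328% of coding counts had no gene. Lanes were summed per library; 4 of 96 lanes, all of mutant footprint pool 1, held counts on 3 chromosomes at most and were left out. Each gene was represented by the transcript with the highest total.

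Tests used edgeR 4.0.16 in R 4.3.3 (quasi-likelihood, TMM, filterByExpr with minimum count 10 and total 15, Benjamini-Hochberg over all genes tested, threshold 0.05). RNA and footprints were fitted over 6 libraries each. Footprints per mRNA were tested as the interaction of assay and genotype over 12 libraries, with no term for the pool that both assays share. The 5′UTR ratio was tested as the interaction of region and genotype with the library as block. SE is the log2 difference over the square root of F. CPM are TMM-scaled, ratios per pool used a prior of 0.5 CPM, and density is counts per base. Biological coefficients of variation were 8.16% for RNA, 9.97% for footprints, 9.19% in footprints per mRNA and 9.92% in the 5′UTR fit. An exact permutation test of 3 against 3 pools cannot go below p = 0.1 and was not used. The floor of 3 counts covers counting error only.

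Per the labels' protocols, each pool's cells were split into its RNA and footprint libraries, whose deviations from the group mean correlated at 0.611, 0.541 and 0.306 in mutant and 0.245, 0.245 and 0.366 in wild-type pools 1, 2 and 3. Values per library are given for Eif3c, for the members of smallest p in each test, for those past the threshold, for Fgfr1, Fgfr2, Fgfr3, Fgf8, Fgf15, Spry4, Dusp6 and Etv4, and for members whose groups overlapped in neither assay; a few others were added after their values were seen. Marker lists are given where their groups or a pool stood apart, as are neural progenitors. Alternatives were DESeq2 1.42.0, RLE factors, no filter, limma-voom (limma 3.58.1), a replicate or pool block, leaving out each pool, all lanes, the second run alone and counts summed over transcripts. The procedures were also run on simulated counts with the same spread for all genes and no link between libraries of a pool. Changes were set only in well-counted genes, so weakly expressed members are not covered. Figures used Python 3.11.15, pandas 2.3.3, NumPy 2.4.6 and Matplotlib 3.10.9. A result of the wider pathway list is not reported here.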

Additional observations from a re-analysis of the deposited data

How the results depend on the processing

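Of 516 values that 39 single-gene differences took under the alternatives, 489 kept their direction and their side of the threshold. Counts of genes past the threshold were less stable. In RNA, 52 genes became 394 with DESeq2, 462 with no filter on low counts, 87 with limma-voom, 196 with the replicate block, 86 in the second run only and 1 with counts summed over transcripts, and leaving out a pool gave 1 to 1522. In footprints, 34 became 820 with DESeq2, 243 with no filter, 130 with limma-voom, 9 with all lanes summed, 105 in the second run only and 22 with counts summed over transcripts, and leaving out a pool gave 8 to 2333. In footprints per mRNA, 0 became 20 with DESeq2 and 113 with the pool as replicate block, and leaving out a pool gave 0 to 1. In the 5′UTR ratio, 998 became 620 with counts summed over transcripts, and leaving out a pool gave 47 to 3123. The highest count in RNA, in footprints and in the 5′UTR ratio came without mutant pool 2, and the cause was not tested.

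No member passed in RNA, footprints or footprints per mRNA under any alternative except Dusp4 in RNA and Fgf12 and Fgf14 in footprints, all without mutant pool 2. In the 5′UTR ratio Spred1 was 0.81 (adjusted p = 0.0850) with counts summed over transcripts and 0.73 to 1.18 with a pool left out, and without mutant pool 2 Dusp4 (0.36), Fgf13 (0.64) and Fgfr1 also passed. Several differences changed sign, none of them past the threshold. Leaving out a pool gave, in RNA, −0.024 to 0.060 for Fgfr1, −0.18 to 0.071 for Fgfr3, −0.24 to 0.011 for Fgf15 and −0.10 to 0.062 for Spred1, and in footprints −0.071 to 0.020 for Fgfr2, −0.21 to 0.039 for Fgf15 and −0.084 to 0.35 for Etv4. In the second run only, Etv4 was −0.13 in RNA and Fgfr2 was 0.0067 in footprints. Frs2 was 0.075 in footprints with all lanes summed, against −0.26 without the incomplete lanes, where the 4 incomplete lanes add counts on a few chromosomes only. Dusp6, on chromosome 10 like Frs2, kept its sign but was 0.70 with all lanes summed, against 0.23 without the incomplete lanes. Same-numbered mutant and wild-type pools correlated at 0.0888, 0.0470 and 0.0715 in RNA and −0.0871, −0.113 and −0.0358 in footprints. Differently numbered pools correlated at −0.084 to 0.0051 in RNA and −0.064 to 0.139 in footprints. What a shared number means is not labelled, and whether such pools are related was not tested. Depth limits the weakly expressed ligands, of which Fgf1 and Fgf8 stayed at or under 3 counts in every library.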
